A study of Homo sapiens with 6 samples.

Results

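FLG, HRNR and ABCA12 are 3 genes of the epidermal barrier, and in HCCLM3 hepatocellular carcinoma cells all 3 had fewer reads after ginkgolic acid than after DMSO. They were taken by name from a deposited comparison of 403 genes and had been chosen for their difference between these same libraries, so their values are a description and carry no test. The RNA-seq libraries came from HCCLM3, an established human liver cancer cell line labelled wild type, after 24 h with 10 µM ginkgolic acid, an alkylated salicylic acid of Ginkgo biloba, or with the vehicle DMSO. There were 3 libraries per group, and the labels do not say whether they came from separate cultures, so their spread may be technical.

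Filaggrin and hornerin are large, repetitive proteins of the S100 fused-type family. In the outer layers of skin profilaggrin is stored in keratohyalin granules, cut into filaggrin units that bundle keratin filaments, and finally broken down into amino acids that hold water in the cornified layer. Hornerin is built on the same plan and is cross-linked into the cornified envelope. ABCA12 is a membrane transporter that loads glucosylceramides into the lamellar granules of keratinocytes, from which the lipid sheets between the cornified cells are formed. Loss of filaggrin underlies ichthyosis vulgaris, and loss of ABCA12 underlies harlequin ichthyosis. None of these is a defining gene of hepatocytes.

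FLG (ENSG00000143631; GRCh38, chromosome 1, 152302175 to 152325203, minus strand) and HRNR (ENSG00000197915; chromosome 1, 152212082 to 152224193, minus strand) lie next to each other in the epidermal differentiation complex, with 78.0 kb and 0 whole annotated genes between them. Each has 3 exons in GENCODE release 29, and the last exon of each holds its long run of repeats. ABCA12 (ENSG00000144452; chromosome 2, 214931542 to 215138428, minus strand) has 54 merged exons and lies on another chromosome. The 250 bases upstream of each gene's RefSeq start (GRCh38.p14, minus strand, written 5′ to 3′ along the gene) are shown because FLG and HRNR were lower together. Capitals mark matches to a TATA box (TATAAA, on the gene's strand) and to a loose AP-1 pattern. That pattern is TGANTCA, with any base at N, and it reads as itself on the other strand.
FLG, chr1:152325240-152325489: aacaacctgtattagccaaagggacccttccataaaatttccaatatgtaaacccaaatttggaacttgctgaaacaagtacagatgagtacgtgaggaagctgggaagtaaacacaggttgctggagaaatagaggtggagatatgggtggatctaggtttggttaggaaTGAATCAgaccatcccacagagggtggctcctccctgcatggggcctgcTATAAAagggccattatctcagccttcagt
HRNR, chr1:152224194-152224443: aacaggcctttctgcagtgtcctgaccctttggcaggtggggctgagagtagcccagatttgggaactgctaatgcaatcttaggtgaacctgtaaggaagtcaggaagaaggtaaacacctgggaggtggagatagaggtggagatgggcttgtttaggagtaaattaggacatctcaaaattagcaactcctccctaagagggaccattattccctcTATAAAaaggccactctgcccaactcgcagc
ABCA12, chr2:215138627-215138876: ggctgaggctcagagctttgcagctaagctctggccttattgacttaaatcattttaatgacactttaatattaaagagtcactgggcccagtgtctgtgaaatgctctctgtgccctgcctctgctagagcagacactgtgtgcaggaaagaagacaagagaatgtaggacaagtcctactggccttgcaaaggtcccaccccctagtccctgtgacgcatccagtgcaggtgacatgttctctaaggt
FLG and HRNR both held a TATA box, which began 30 and 31 bases upstream of the start, and no such match was in the ABCA12 window. That motif was found in 6.80% of 35116 RefSeq upstream windows of this length. An AP-1 match was in the FLG window, 79 to 73 bases upstream, and not in those of HRNR or ABCA12, against 6.57% of all windows on either strand. The longest run of letters shared by the FLG and HRNR windows was 14 bases, ATAGAGGTGGAGAT, while FLG and ABCA12 shared at most 6 and HRNR and ABCA12 at most 7. The start that RefSeq gives for ABCA12 here is the more upstream of 2. Matches upstream of the other start were not looked up, so their absence holds for this window only. A match is a run of letters, and binding was not measured.

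The other members of the family were read in the same way. TCHH, which encodes trichohyalin, shared a run of 19 bases with FLG, TTGGTTAGGAATGAATCAG, which contains the AP-1 match. Of the aligned bases, FLG and TCHH had 71.6% identical, and HRNR and FLG2 74.2%, the highest share listed for each of FLG and HRNR. FLG and HRNR had 67.98% identical. ABCA12, from outside the family, had 57.59% with FLG and 66.02% with HRNR. HRNR and RPTN, both of the family, had 60.96%, which is below HRNR and ABCA12. No background from other windows is given for these shares, so no relatedness is read from them. Of the 7 S100 fused-type genes, 6 had an AP-1 match in this window and HRNR was the one without. These matches read TGAATCA, or TGATTCA in RPTN, so none had C or G at its centre. A TATA box was found in 5 of the 7, and FLG2 and TCHHL1 were those without. Further motifs belong to factors of the list of epidermal regulators used here, and they were searched on both strands. The GATA core (GATAA, in 20.4% of all windows) and the C/EBP motif (TTGCNNAA, 9.05%) each matched once in FLG and not in HRNR or ABCA12. The GATA core also matched in FLG2, RPTN and TCHH, and the C/EBP motif also matched in FLG2. The core of the aryl hydrocarbon receptor motif (GCGTG, 32.2%) matched in none of these 8 windows.

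**Figure D1:**
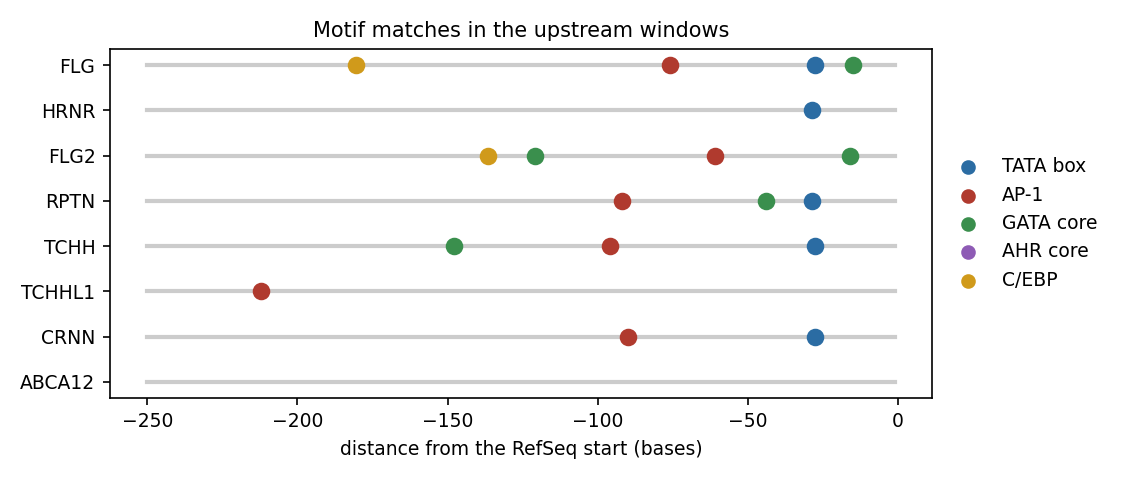
Positions of motif matches in the 250 bases upstream of the RefSeq start (x axis, bases from the start) of the 7 S100 fused-type genes and ABCA12. Each dot is a match, coloured by motif. The TATA box lies within 31 bases of the start in the 5 genes that have it, AP-1 matches are in 6 genes, and HRNR and ABCA12 have none.

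Filaggrin transcript levels were lower in every ginkgolic acid library. The values are normalised read counts, that is, reads divided by a library size factor. FLG stood at 108.1, 94.4 and 112.8 in DMSO replicates 1, 2 and 3 and at 43.5, 44.5 and 38.6 in ginkgolic acid replicates 1, 2 and 3. The groups did not overlap, and the lowest DMSO library was well above the highest treated one. The means were 105.1 ± 9.58 and 42.2 ± 3.15 (SD, n = 3 each), so FLG was 2.49-fold lower with ginkgolic acid. The authors' deposited table puts its log2 fold change at -1.32. Reads were recovered by taking the step of each library, of which all its values are whole multiples, as 1 read; the recovered numbers of a library have no common divisor above 1. That the step is 1 read is an inference from the values, and all read numbers and their intervals rest on it. On that basis FLG had 320 reads with DMSO (exact 95% Poisson interval 286 to 357) and 126 with ginkgolic acid (105 to 150). These intervals cover counting error only. The SDs of FLG, 9.58 and 3.15, were below the square root of its mean reads per library, 10.3 with DMSO and 6.48 with ginkgolic acid, which is about the spread that counting alone gives.

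Hornerin transcripts were lower to a similar extent, at a lower level. HRNR stood at 45.0, 44.8 and 67.9 normalised read counts with DMSO and at 22.3, 19.5 and 18.4 with ginkgolic acid. The treated libraries lay close together, and DMSO replicate 3 stood above the other DMSO libraries. The means were 52.6 ± 13.3 and 20.1 ± 1.97 (SD, n = 3 each), a 2.62-fold difference. The authors' deposited table lists it at -1.39 on the log2 scale. Without DMSO replicate 3 the fitted log2 fold change went from -1.32 to -1.13. HRNR had 160 recovered reads with DMSO (136.2 to 187) and 60 with ginkgolic acid (45.8 to 77.2). Its SD was above the square root of its mean reads with DMSO, 13.3 against 7.30, and below it with ginkgolic acid, 1.97 against 4.47.

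ABCA12 transcripts were lower as well, with more scatter among treated libraries. The values were 43.0, 53.4 and 44.9 normalised read counts with DMSO and 11.7, 30.4 and 22.8 with ginkgolic acid. The groups did not overlap, but ginkgolic acid replicate 1 was far below replicate 2 of the same group. The means were 47.1 ± 5.51 and 21.6 ± 9.43 (SD, n = 3 each), a 2.18-fold difference, and the authors' deposited table lists ABCA12 at -1.12 on the log2 scale. The fitted log2 fold change was -1.18 (SE 0.31) and became -0.81 without ginkgolic acid replicate 1, which is smaller than the change of 1 that the authors' selection required. The recovered reads numbered 144 with DMSO (121 to 170) and 65 with ginkgolic acid (50.2 to 82.8). The treated SD of 9.43 was above the square root of the mean reads, 4.65, and the DMSO SD of 5.51 was below it, 6.93.

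**Figure D2:**
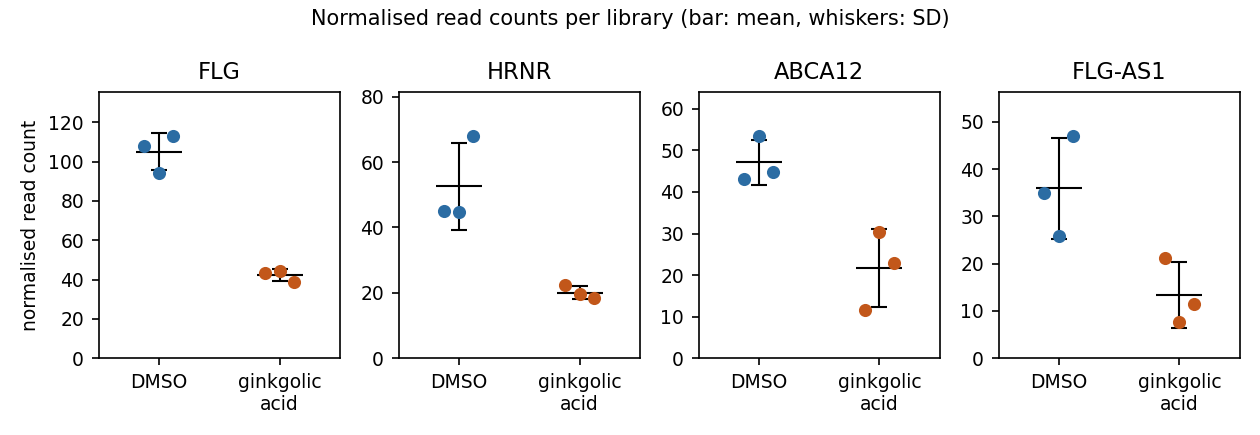
Normalised read counts (y axis) of FLG, HRNR, ABCA12 and the antisense transcript FLG-AS1 in each DMSO and ginkgolic acid library. Points are libraries, the horizontal bar is the mean and the whiskers the SD (n = 3). All treated libraries lie below all DMSO libraries in each panel, and the treated libraries run from 11.7 to 30.4 for ABCA12 and from 7.60 to 21.2 for FLG-AS1.

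All 3 genes met the authors' thresholds, an adjusted p under 0.05 and a log2 fold change beyond 1 in either direction, as did every gene of the table. The adjusted p-values imply 16104 genes tested, of which 2.50% were selected and 0.931% were selected as lower. Since the 3 genes were chosen from these selected genes, nothing is read from their count. Groups that do not overlap are the rule in the table, at 98.3% of its genes. The authors' deposited table has a median of -1.30 on the log2 scale over its 150 lower genes. By that measure 68 of them fell more than FLG, 55 more than HRNR and 112 more than ABCA12.

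Per length, all 3 stood below the median of the protein-coding genes of the table in DMSO libraries, with FLG the nearest to it. In DMSO libraries FLG had 8.24 ± 0.751 normalised read counts per kilobase, HRNR 5.46 ± 1.38 and ABCA12 5.004 ± 0.585 (SD, n = 3). Levels of HRNR and ABCA12 did not differ beyond their spread, and FLG was above both. With ginkgolic acid the levels were 3.31 ± 0.247 for FLG, 2.30 ± 1.002 for ABCA12 and 2.09 ± 0.204 for HRNR per kilobase. HRNR and ABCA12 again could not be ordered, and the spreads of FLG and ABCA12 overlapped. The median of the 268 protein-coding genes in the table was 10.5 per kilobase in DMSO libraries, and 151 of them stood above FLG, 181 above HRNR and 185 above ABCA12.

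The balance between the neighbours did not separate the groups. FLG, HRNR and ABCA12 were all chosen as lower in these libraries, so similar ratios in both groups are partly set by that choice. HRNR made up 29.4%, 32.2% and 37.6% of the reads of HRNR and FLG together in DMSO replicates 1, 2 and 3. With ginkgolic acid the shares were 33.9%, 30.5% and 32.3%. The ranges overlapped, and the means were 33.1% ± 4.15 and 32.2% ± 1.68 (SD, n = 3 each). With 59 to 181 recovered reads of both genes per library, exact 95% binomial intervals were wide, for example 19.2% to 43.9% in ginkgolic acid replicate 2, so a modest shift in the balance was not detectable at this depth. As a ratio to FLG, HRNR ran from 0.417 to 0.602 in DMSO libraries and from 0.439 to 0.512 in treated ones. The ratio of ABCA12 to FLG ran from 0.398 to 0.566 in DMSO libraries, a similar width, and from 0.268 to 0.683 in treated ones, a wider range than that of HRNR.

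**Figure D3:**
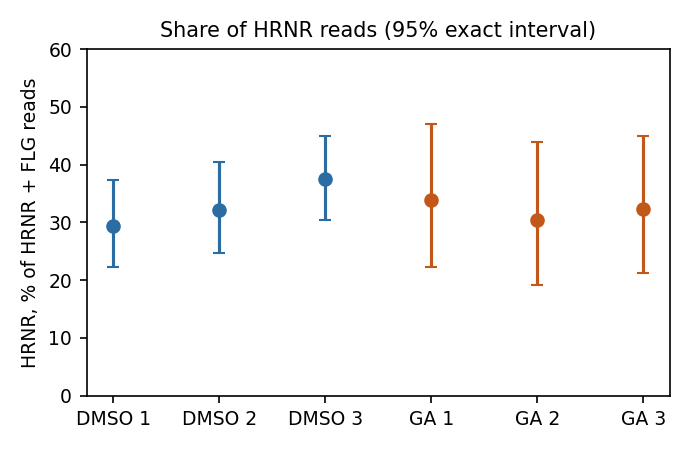
HRNR reads as a percentage of HRNR and FLG reads (y axis) in each library (x axis; GA, ginkgolic acid). Points are the shares and whiskers exact 95% binomial intervals, which cover counting error only. Shares lie between 29.4% and 37.6%, and the intervals of all libraries overlap.

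The antisense transcript that spans both genes was lower too. FLG-AS1 (ENSG00000237975; chromosome 1, 152168125 to 152445456, plus strand) is an antisense RNA gene whose span covers HRNR, FLG, FLG2 and CRNN. It stood at 35.0, 25.7 and 46.9 normalised read counts with DMSO and at 21.2, 7.60 and 11.4 with ginkgolic acid. The groups did not overlap, although DMSO replicate 2 and ginkgolic acid replicate 1 came close. The means were 35.9 ± 10.6 and 13.4 ± 7.01 (SD, n = 3 each), a 2.68-fold difference on 109 recovered reads against 40. Both SDs were above the square roots of the mean reads, 6.03 and 3.65. The fit put FLG-AS1 at -1.43 on the log2 scale, with an SE of 0.36. Leaving out ginkgolic acid replicate 1 gave -1.80, and leaving out replicate 2 of that group gave -1.11. Exons of FLG-AS1 and FLG share 704 bases on opposite strands, 5.52% of the exonic bases of FLG and 9.15% of those of FLG-AS1. With a strand setting not given in the sources used here, reads from that stretch cannot be assigned to either gene. No exonic base of HRNR is shared with FLG-AS1, and HRNR lies within an intron of it. In ABCA12 58 exonic bases, 0.616%, are shared with the antisense gene AC072062.1, which was not analysed here.

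**Figure D4:**
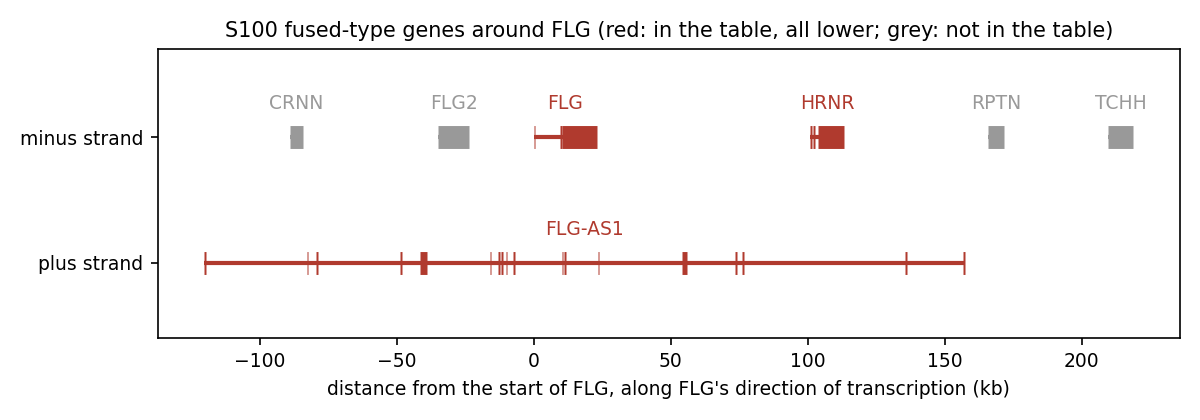
Map of the S100 fused-type genes around FLG, by distance from the start of FLG along its direction of transcription (x axis, kb). Boxes are exons of FLG, HRNR and FLG-AS1 and whole spans of the others; red genes are in the table and lower with ginkgolic acid, grey genes are not in the table. FLG-AS1, on the plus strand, spans both red genes of the minus strand.

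Repeats within the genes bear on how surely reads can be placed. Of all stretches of 100 bases in the FLG transcript, 15.4% occur more than once in that transcript, as do 36.5% of those in HRNR and 0% of those in ABCA12. Read length and the handling of reads with several placements: neither was stated in the labels or the file headers. No stretch of 100 bases of HRNR or ABCA12 occurs in an annotated transcript of another gene, and 4.02% of those of FLG occur only in FLG-AS1 besides FLG itself, from the overlap on the opposite strand. FLG and HRNR therefore share no such stretch with each other. The coding run of 60 bases that is most often repeated in HRNR, the gene with the larger repeated share, shows these repeats (GENCODE release 29 transcript, minus strand, first copy given).
HRNR, chr1:152218738-152218797: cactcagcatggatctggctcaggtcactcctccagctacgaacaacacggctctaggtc
This run occurs 4 times in the HRNR transcript, every 1410 bases, and in no transcript of another gene.

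The other genes near the members went in both directions. Within 2 Mb of FLG or HRNR 244 genes are annotated, of which an unknown number were tested. Of the 244, 6 (2.46%) were in the table, beside 2.50% of all genes tested. They were the pair itself, FLG-AS1 and, on the side of HRNR, 3 genes that were higher. The pair was chosen from the table, so the share of 2.46% is partly set by that choice and nothing is read from it. ADAMTSL4, which encodes a microfibril-associated protein, was 2.37-fold higher, at 108.8 ± 5.68 normalised read counts with DMSO and 258.3 ± 39.6 with ginkgolic acid (SD, n = 3 each). BNIPL, which encodes a BCL2-interacting protein, was 3.58-fold higher, from 10.1 ± 4.15 to 36.1 ± 7.61. CA14, a membrane-bound carbonic anhydrase, was 2.20-fold higher, from 25.3 ± 5.47 to 55.9 ± 16.4. ADAMTSL4 shares 11.4% of its exonic bases with ADAMTSL4-AS1 on the opposite strand, so some of its reads are uncertain. With libraries scaled to the median ratio of the table, the fitted log2 fold change of ADAMTSL4 went from 1.23 to 0.34 (limma adjusted p = 0.0577). That of CA14 went from 1.09 to 0.22 (limma adjusted p = 0.463). Such scaling centres on genes selected as changed, more of them higher than lower, so it lowers fold changes by construction. Within 2 Mb of ABCA12 67 genes are annotated, and 2 (2.99%) were in the table, one of them ABCA12 itself. The other was LINC01963, 1.08 Mb away, at 59.5 ± 8.61 with DMSO and 22.02 ± 7.93 with ginkgolic acid, 2.70-fold lower.

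Other genes of skin differentiation were looked up in 7 lists with 170 distinct symbols, all of which matched an annotated gene. Besides the 3 members, 6 of 167 (3.59%) were in the table, 4 higher and 2 lower. Of the genes tested, 1.57% were selected as higher and 0.931% as lower. The lists were chosen with earlier results of these data known, and how many of the 167 were tested is unknown. Nothing is read from this share. By the authors' deposited table the median of those 6 was 1.35 on the log2 scale, beside 1.12 over all 403 genes. Genes outside the table were not analysed here, and their absence from it does not show that they were unchanged or measured at all. In the table limma called 100% of the genes, as they had been selected on these libraries, so its p-values add no evidence of a difference. Of the 7 S100 fused-type genes only FLG and HRNR were in the table. None of the 55 other genes of the epidermal differentiation complex was, which include loricrin, involucrin and the small proline-rich, late cornified envelope and S100 genes. ABCA12 was the one selected gene of 12 ABCA transporters.

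Of the 18 genes listed for filaggrin processing and cross-linking 2 were in the table, both proteases and both higher. Of all genes tested 1.57% were selected as higher. PRSS8, which encodes prostasin, a membrane-anchored serine protease of the matriptase cascade that leads to profilaggrin cleavage, stood at 23.02, 20.97 and 12.98 normalised read counts with DMSO and at 77.4, 83.6 and 81.6 with ginkgolic acid. Its treated libraries were close together and far above all DMSO libraries, a 4.26-fold difference. The antisense gene AC009088.3 shares 11.9% of its exonic bases. KLK14, a kallikrein that degrades the desmosomes of the cornified layer, stood at 11.01, 6.67 and 3.99 with DMSO and at 14.8, 17.4 and 28.96 with ginkgolic acid. The groups came close at these low counts, with a 2.82-fold difference between the means. Its fitted log2 fold change went from 1.41 to 0.60 when libraries were scaled to the median ratio of the table (limma adjusted p = 0.21). That scaling centres on the selected genes and lowers fold changes by construction.

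Of the 23 genes of barrier lipid synthesis and transport, ABCA12 was lower and FA2H was higher, where 2.50% of all genes tested were in the table. FA2H adds the 2-hydroxyl group to fatty acids of sphingolipids, including ceramides of skin. It stood at 320.3, 372.7 and 349.4 with DMSO and at 682.5, 898.1 and 802.1 with ginkgolic acid, a 2.29-fold difference. The same scaling, which lowers fold changes by construction, moved its fitted log2 fold change from 1.18 to 0.29 (limma adjusted p = 0.0529). No libraries overlapped, and the gene was more abundant per length than ABCA12, at 106.0 against 5.004 normalised read counts per kilobase in DMSO libraries. Of the 24 keratins, desmosomal and envelope proteins the table held KRT17, a keratin of stressed and appendage epithelium, at 15.6 ± 6.28 with DMSO and 152.0 ± 11.8 with ginkgolic acid.

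Of 32 regulators of epidermal differentiation 2 were in the table and both were lower, where 0.931% of all genes tested were selected as lower. GATA3, a zinc finger transcription factor of the epidermis, stood at 86.1, 58.1 and 70.9 with DMSO and at 31.8, 36.9 and 37.7 with ginkgolic acid, a 2.02-fold difference. FOSL1, a subunit of AP-1, went from 1584 ± 81.0 to 778.2 ± 23.9, a 2.04-fold difference. The treated libraries of both genes lay below all DMSO libraries. Activity of these factors was not measured.

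**Figure D5:**
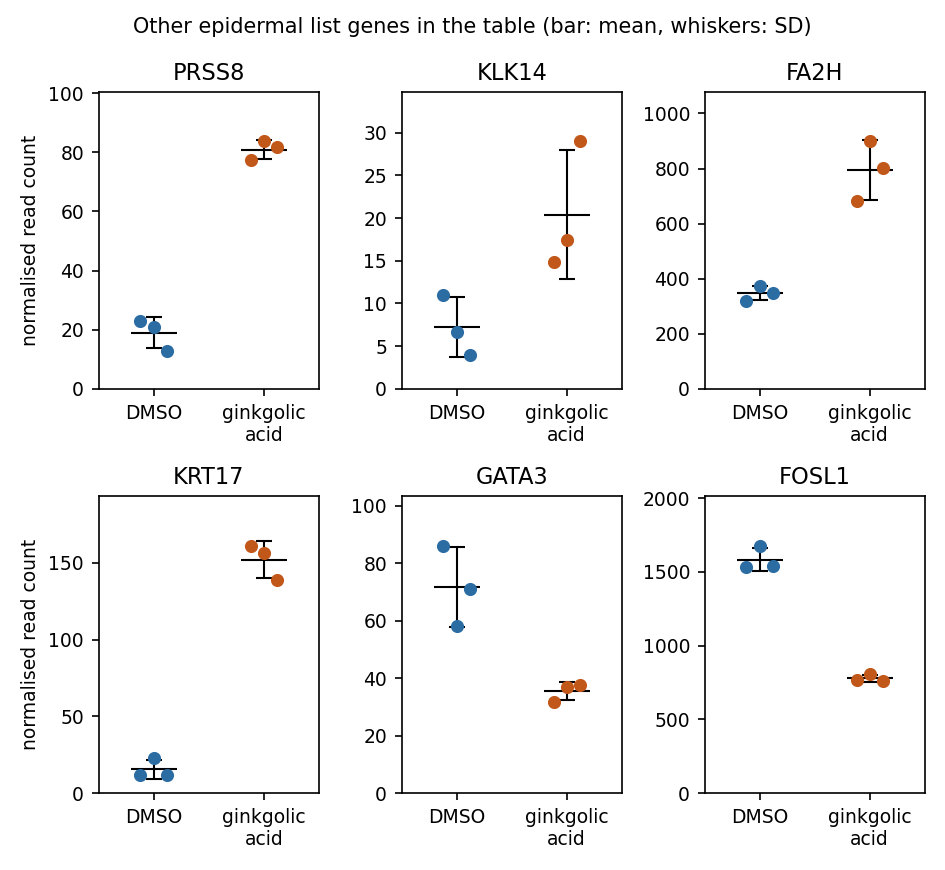
Normalised read counts (y axis) of the 6 other epidermal list genes of the table in each DMSO and ginkgolic acid library. Points are libraries, the bar is the mean and the whiskers the SD (n = 3). PRSS8, KLK14, FA2H and KRT17 are higher with ginkgolic acid, and GATA3 and FOSL1 are lower.

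Markers of the labelled cell type and of others could be read only where the table held them. Of 20 hepatocyte markers 2 were present, where 2.50% of all genes tested were in the table. ALB, which encodes albumin, was at 19.1 ± 5.97 with DMSO and 5.30 ± 3.83 with ginkgolic acid, and CYP2E1, a cytochrome P450 that shares 21.5% of its exonic bases with SYCE1 on the opposite strand, was at 9.48 ± 1.77 and 24.3 ± 0.350. None of 8 markers of basal keratinocytes, 8 of fibroblasts, 8 of leukocytes or 6 of endothelium was in the table. In bulk RNA, fewer cells with a transcript and less of it per cell cannot be told apart.

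The table genes whose profile over the 6 libraries was most like that of each member were ranked by Pearson correlation. Log2 values were used, among genes with a mean of at least 50. That cut left out 230 of the 403 genes, among them HRNR (mean 36.3), ABCA12 (34.4) and FLG-AS1, which therefore could not appear as matches. The libraries fall into the treated and the untreated group, so these correlations mostly repeat the difference between them. For FLG they were HABP2 (r = 0.998), CASC19 (0.994) and CPLX2 (0.993), of 172 genes compared. HABP2 shares 10.04% of its exonic bases with NRAP on the opposite strand. For HRNR they were DGKG (r = 0.995), SLC5A11 (0.988) and RHOH (0.988). For ABCA12 they were TNS4 (r = 0.960), AC110285.7 (0.930) and SYT8 (0.901). FLG had 60 such genes with r above 0.9, HRNR 49 and ABCA12 3, beside the larger scatter of ABCA12 among treated libraries. TNS4, a tensin of focal adhesions, was picked for its likeness to ABCA12 in these same libraries, so a shared order is partly built in. Its treated values were lowest in replicate 1 and highest in replicate 2, at 13.8, 40.2 and 22.8 normalised read counts. AC110285.7 and SYT8 were lowest in replicate 1 too, but highest in replicate 3, at 42.1 and 123.7.

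Over the genes of the table the libraries held between 67006 and 98627 recovered reads, and total depth is unknown. FLG, HRNR and ABCA12 each had 113 recovered reads or fewer in any library, which limits how finely their differences can be sized.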

How the data were processed

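RNA-seq of 3 ginkgolic acid and 3 DMSO libraries was used, grouped by sample title. Per the submitters' processing notes, the build was hg38 and the tools included DESeq2 1.20.0, featureCounts 1.5.0-p3, HISAT2 2.0.5, fastp and CASAVA 1.8, with settings not given in the sources used here. A deposited file holds a table of 403 selected genes with a signal per library, log2 fold changes and p-values with adjusted p-values. Each deposited signal is a whole multiple of 1 step per library (tolerance 1e-05, 100% of values), as reads divided by a size factor would be, and is called a normalised read count. A second table headed FPKM holds the same values. All 403 positions equal those of GENCODE release 29.

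The log2 of each normalised read count plus 1 was fitted with limma 3.58.1 (R 4.3.3, intensity trend, mean of at least 1, which removed 0 genes, Benjamini-Hochberg over the 403 genes, threshold 0.05). This test planned for log values was kept because the deposited values are not counts. Fold changes on this scale understate those of low genes. The fit was tested on simulated data. With 3 against 3 libraries an exact permutation test cannot go below 0.10 (two-sided), and none was run. The members, gene lists and rules were chosen with earlier results of these data known. The text names the members, list members in the table, table genes within 2 Mb, and the 3 genes most like each member. Sequences are from RefSeq (GRCh38.p14; all 3 members matched) and GENCODE transcripts. Other steps used Python 3.11.15, pandas 2.3.3, scipy 1.17.1 and matplotlib 3.10.9.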

Additional observations from a re-analysis of the deposited data

How the results depend on the processing

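FLG, HRNR and ABCA12 were lower in 13 refits and by the authors' log2 fold change, and stayed past the limma threshold in each refit, which was largely fixed in advance by how the genes were chosen. Leaving out each library in turn gave log2 fold changes of -1.37 to -1.23 for FLG, -1.42 to -1.13 for HRNR and -1.46 to -0.81 for ABCA12. Scaling libraries to the median ratio of the table moved the median of all genes by -0.87 and gave 61 genes called higher in place of 253, with 150 lower as before. By construction it centres on changed genes. Under it FLG was at -2.17, HRNR at -2.18 and ABCA12 at -2.04, and ADAMTSL4, CA14, KLK14, FA2H and CYP2E1 no longer passed the threshold. No named gene changed direction. Without single libraries 250 to 253 genes were called higher and 148 to 150 lower, and the HRNR share was 30.8% to 34.9% with DMSO and 31.4% to 33.1% with ginkgolic acid. Same-numbered libraries did not deviate together (r = -0.03, 0.00 and -0.07 across genes). Only genes selected for a difference between the groups entered this check, so it cannot show whether same-numbered libraries were prepared together. The labels do not say. A replicate block gave 253 and 150 calls, so it changed no call. Tests on recovered reads with a count model were not run, since the deposited values are a scaled signal and single reads are only inferred from them.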
